A study of Mus musculus with 12 samples.

Results

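The genes described here are 10 erythroid maturation transcription factors: the Krüppel-like factors Klf1 and Klf3, the zinc finger repressors Gfi1b and Gfi1, the progenitor factor Myb, the globin gene silencers Bcl11a, Zbtb7a and Sox6, and the Ikaros family genes Ikzf1 and Ikzf4. They are a list of names, with no threshold on a measured value, drawn up with earlier results of these data known, and all 10 are among the 17210 genes of the count table. Of these, 9 passed the filter on low counts that left 11177 genes to be tested, and Gfi1 did not. Expression was read from 12 RNA libraries of G1E-ER4, a C57BL/6J mouse erythroid line that grew out of GATA1-null embryonic stem cells and carries GATA1 fused to the estrogen receptor's ligand-binding domain, which makes GATA1 activity depend on β-estradiol (EST). All 4 groups shared this background. The cells were transduced for 24 h with an empty retrovirus (Vector) or with a retrovirus carrying active SREBP2, the factor that drives cholesterol synthesis genes, and then received vehicle or EST for 6 h, which gave the groups Vector, Vector+EST, SREBP2 and SREBP2+EST with 3 libraries each. The EST dose is 500 nM in the protocol of the samples and 200 nM in the design text. This is 1 cell line. The sample labels do not say whether the 3 libraries of a group came from separate cultures, and the study speaks of independent experiments only in general captions, so the p-values below measure the spread between these libraries, which may be partly technical.

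During red cell maturation, GATA1 takes over from progenitor factors such as GATA2 and works with a small set of partners. KLF1 binds CACCC boxes and activates globin, heme and membrane genes, and KLF3, whose gene KLF1 itself activates, binds the same boxes and represses through the CtBP corepressors. GFI1B and its relative GFI1 recruit the lysine demethylase LSD1 (Kdm1a) with CoREST, and GFI1B is the family member used in red cells and platelets. MYB keeps progenitors dividing, and its level falls as they mature. BCL11A and ZBTB7A silence embryonic and fetal globin genes, largely through the NuRD chromatin complex, and SOX6 works beside BCL11A. The Ikaros proteins, of which Ikzf1 encodes the founder, also bind NuRD.

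Because EST acts here through GATA1, the promoters of 4 members are shown to make the letters these factors read visible. The first 3 carry the letters of a GATA site before their start, and Klf3 is shown for its run of CACCC-type letters. The sequences are RefSeq promoter windows on GRCm38.p6, written 5′ to 3′ on the gene's own strand and cut to the stretch outside annotated exons. Capitals mark GATA matches (the hexamer AGATAA, the variant TGATAA, and the forms of each that end in G, on either strand) in Gfi1b, Klf1 and Zbtb7a, and CACCC-box matches (CCNCNCCC on either strand, a pattern that also takes GC boxes and matches that overlap each other) in Klf3. The Zbtb7a stretch lies inside the span of the annotated gene but outside its exons, and the other 3 lie directly before the annotated gene.
Gfi1b, chr2:28621983-28622232, minus strand: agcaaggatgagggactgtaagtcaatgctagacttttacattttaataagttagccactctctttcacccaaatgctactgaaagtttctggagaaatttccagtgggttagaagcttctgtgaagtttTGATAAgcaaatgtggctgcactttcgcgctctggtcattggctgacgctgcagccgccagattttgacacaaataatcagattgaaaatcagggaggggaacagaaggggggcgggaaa
Klf1, chr8:84901732-84901927, plus strand: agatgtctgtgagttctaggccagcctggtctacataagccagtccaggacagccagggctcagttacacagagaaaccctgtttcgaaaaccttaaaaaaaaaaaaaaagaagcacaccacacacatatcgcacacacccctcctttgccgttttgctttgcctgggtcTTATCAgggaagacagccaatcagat
Zbtb7a, chr10:81136021-81136270, plus strand: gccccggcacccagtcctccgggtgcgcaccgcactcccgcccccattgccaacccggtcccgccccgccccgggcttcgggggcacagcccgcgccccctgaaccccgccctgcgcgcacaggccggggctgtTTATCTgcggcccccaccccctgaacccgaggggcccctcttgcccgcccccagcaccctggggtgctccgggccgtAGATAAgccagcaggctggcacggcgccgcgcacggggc
Klf3, chr5:64803271-64803387, plus strand: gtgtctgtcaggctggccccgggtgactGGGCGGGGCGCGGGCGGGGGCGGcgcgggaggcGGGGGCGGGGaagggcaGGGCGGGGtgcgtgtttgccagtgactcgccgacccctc
The GATA match begins 120 bases before the RefSeq start site in Gfi1b and 80 bases before it in Klf1. The 2 matches of Zbtb7a begin 116 and 39 bases before it. In Klf1 and Klf3 the RefSeq start lies inside the annotated gene, past the end of the printed stretch. RefSeq windows were found for 9 of the 10 members, at 16 start sites in all. In the 250 bases before the start, GATA letters occurred at 4 of these 16 start sites, the fourth being an internal start of Sox6, while 26.5% of all 32851 promoter windows hold them. CACCC-type letters occurred at 10 of the 16, in 8 members, against 45.9% of all windows, and Klf3 alone had 10 matches. Those that begin 111, 102 and 65 bases before the Klf3 start lie past its printed stretch. The letters of a sterol regulatory element, TCACNCCAC, were found at 1 of the 16, the same internal start of Sox6, against 1.05% of all windows. These are matches of letters and say nothing of binding.

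Total estimated counts were nearly level, from 18700959 to 19152281 per library, and levels are given as CPM, counts relative to a library total that was scaled by edgeR's TMM method, with the mean ± SD over n = 3. Mouse Srebf2 averaged 361 ± 8.32 and 442 ± 13.03 CPM without the SREBP2 virus (Vector, Vector+EST) against 816 ± 20.1 and 808 ± 6.66 CPM with it. A caption of the study speaks of human SREBP2 RNA in cells of this line given such a virus, and the table does not show whether these counts come from the cells' own gene or from the introduced copy. Gata1 averaged 1769 CPM in Vector, 453 CPM in Vector+EST (3.91-fold lower, adjusted p = 5e-13), 557 CPM in SREBP2 (3.18-fold lower than Vector, adjusted p = 2.17e-12) and 519.5 CPM in SREBP2+EST, and the table does not separate the fusion from other Gata1 RNA. The cells are labelled as embryonic stem cells, yet 8 of 9 erythroid markers were in the table at a summed 5318 to 7793 CPM, while the 3 of 5 pluripotency markers in the table summed to at most 0.650 CPM. In a sum of 5 fibroblast markers, Vector+EST library 5 (34.5 CPM) stood apart from Vector+EST libraries 1 and 3 (4.74 and 4.71 CPM), the SREBP2+EST libraries (18.1 to 33.8 CPM) lay above the SREBP2 libraries (4.03 to 5.42 CPM), and Vector libraries held 19.1 to 19.9 CPM. The Vector sum was nearly all Col1a2 (19.5 ± 0.515 CPM), while Col1a1, Fn1, Mmp2 and Igfbp7 averaged at most 0.102 CPM in Vector and 0.0538 CPM in SREBP2, against 1.76 (Mmp2) to 9.04 CPM (Col1a1) in SREBP2+EST. In Vector+EST, Col1a1 ran from 0 to 13.4 CPM. Libraries are named by the number in the table's headers. SREBP2 library 1 and SREBP2+EST library 1 each stood apart from the other libraries of their own group, with a chi-square per gene of 8.15 to 10.6 and 6.19 to 6.31 against them, where other pairs within a group had 1.81 to 3.32. Where leaving them out changed a member's call or moved a called value by over 1.5 times, the value without them is given as well.

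Differences were tested with edgeR's quasi-likelihood F-test on all 11177 genes, with Benjamini-Hochberg adjusted p-values over all of them and a threshold of 0.05. EST in Vector cells raised Klf1, Gfi1b and Ikzf1 and lowered Klf3, Myb, Bcl11a, Sox6 and Ikzf4, which is 8 of the 9 tested members, where 70.6% of all tested genes passed (35.2% higher, 35.5% lower). SREBP2 without EST raised Klf1 and Gfi1b and lowered Klf3, Myb, Bcl11a, Zbtb7a, Sox6 and Ikzf4, again 8 of 9 against 71.5% of all genes (37.7% higher, 33.8% lower). The libraries did not overlap between groups for 8 of 9 members in the former comparison and for all 9 in the latter, against 75.7% and 74.8% of all genes. With most genes past the threshold, these shares are not a result about the members, whose sizes of change are given below. The median log2 fold change of the 9 members was -0.49 for EST in Vector cells and -0.35 for SREBP2 without EST, while the medians of all genes were 0.010 and 0.031. These 2 comparisons share the Vector libraries. With EST present, SREBP2 raised Klf3 and lowered Bcl11a and Ikzf1, 3 of 9 members where 21.9% of all genes passed (14.0% higher, 7.94% lower), and 4 of 9 did not overlap between groups against 38.1% of all genes. With library totals in place of TMM the split of all genes in this comparison turned, from 1560 higher and 888 lower to 1292 higher and 1768 lower. EST in SREBP2 cells passed for 0 of 9 members in edgeR, with 0 at an unadjusted p under 0.05 and 0 in DESeq2, where 0% of all genes passed after adjustment and 4.53% before it. Without both libraries 1 of the SREBP2 groups it passed for 2 members, Myb and Bcl11a, described below, where 13.9% of genes passed. The RNA is from whole cultures, in which fewer cells of a kind and less RNA per cell cannot be told apart.

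**Figure D1:**
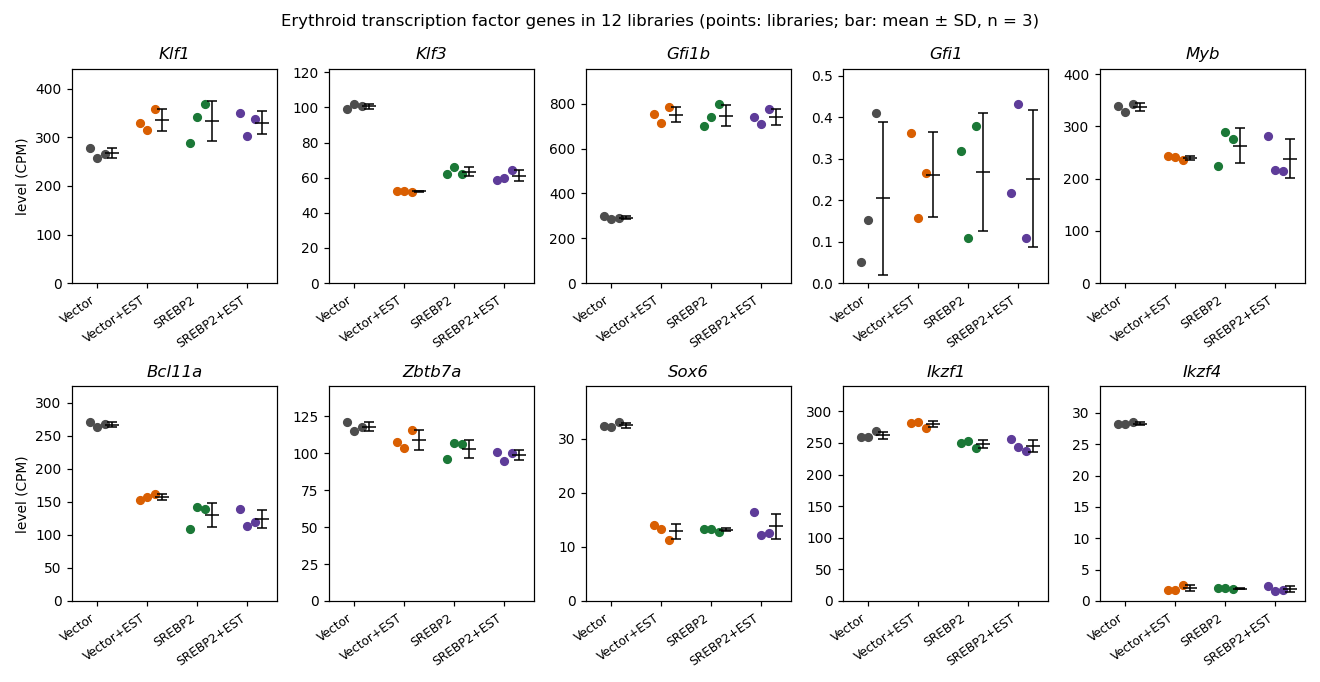
Level of each of the 10 genes in CPM (vertical axis from 0, scaled per gene) in the 3 libraries of each group, with points for libraries and a bar for mean ± SD. Gfi1b sits near 292 CPM in Vector and above 700 CPM elsewhere, Ikzf4 falls from 28.3 CPM to about 2 CPM, and Gfi1 stays under 0.5 CPM.

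Klf1, the main erythroid activator of the Krüppel-like family (Entrez 16596, chr8:84901928-84905291 on GRCm38), stood at 278.5, 258 and 265 CPM in the Vector libraries, at 331, 315 and 359 CPM in Vector+EST, at 288, 343 and 368 in SREBP2 and at 349, 303 and 338 CPM in SREBP2+EST. Every library of the other 3 groups lay above the Vector libraries. Klf1 rose by 0.33 ± 0.076 on the log2 scale (SE) with EST in Vector cells, from 267 ± 10.5 to 335 ± 22.4 CPM (adjusted p = 0.00114), and by 0.32 ± 0.076 with SREBP2 alone (adjusted p = 0.0014). The 3 raised groups did not separate, and the difference that SREBP2 made under EST was -0.021 with a 95% interval from -0.20 to 0.15. For EST in SREBP2 cells it was -0.012, with an interval from -0.19 to 0.16.

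Klf3, the repressor of that family (Entrez 16599, chr5:64803388-64832901), varied little within each group. It read 99.2, 102 and 101.1 CPM in Vector, 52.4, 52.5 and 51.9 CPM in Vector+EST, 62.1, 66.4 and 62.1 in SREBP2, and 58.5, 60.01 and 64.6 CPM in SREBP2+EST. Vector was highest and Vector+EST lowest, with no overlap between Vector+EST and any other group. Klf3 fell by 0.95 ± 0.045 on the log2 scale with EST in Vector cells (adjusted p = 2.25e-11) and by 0.66 ± 0.045 with SREBP2 alone (adjusted p = 1.32e-09). Under EST the SREBP2 libraries held 1.17-fold more Klf3 than the Vector libraries (log2 0.22 ± 0.047, adjusted p = 0.00247). SREBP2 without EST also lay above Vector+EST (log2 0.28 ± 0.047, adjusted p = 0.000315), so the order ran Vector, then SREBP2 and SREBP2+EST, which did not differ beyond their spread (adjusted p = 0.919), then Vector+EST. Annotated transcripts on the other strand overlap exons of Klf3, and likewise of Gfi1, Myb, Bcl11a, Ikzf1 and Ikzf4, and the sources used here do not say whether counting used strand.

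Of 13 other Krüppel-like factor genes, 7 passed the low-count filter. EST in Vector cells raised 2 and lowered 3 of the 7, SREBP2 alone raised 3 and lowered 1, and SREBP2 under EST raised 5 and lowered 0, where 14.0% of all genes rose in that last comparison. For this and the later lists, the shares of all genes are 35.2% raised and 35.5% lowered by EST in Vector cells, and 37.7% raised and 33.8% lowered by SREBP2 alone. Klf13, a ubiquitous family member, rose from 59.1 ± 1.08 CPM in Vector to 212 ± 11.4 CPM with EST and to 265 ± 18.2 CPM with SREBP2 (log2 1.84 and 2.16, adjusted p = 1.22e-13 and 1.22e-14). Klf6 and Klf10, genes that respond quickly to growth signals, fell with EST in Vector cells and were higher with SREBP2 than with Vector under EST. Klf6 fell from 50.9 ± 4.02 to 15.8 ± 0.511 CPM with EST in Vector cells (log2 -1.68, adjusted p = 2.11e-12) and stood at 51.0 ± 2.23 CPM in SREBP2 and 51.0 ± 1.63 CPM in SREBP2+EST, 1.69 higher on the log2 scale than in Vector+EST (adjusted p = 7.67e-12). Klf10 fell from 25.2 ± 1.54 to 4.65 ± 0.490 CPM with EST in Vector cells (log2 -2.43, adjusted p = 3.41e-10) and stood at 18.9 ± 3.41 CPM in SREBP2+EST (log2 2.02 over Vector+EST, adjusted p = 3.5e-08). Klf9 fell with EST in Vector cells (log2 -1.53) and with SREBP2 alone (log2 -1.23), and Klf11 rose with SREBP2 both without EST (log2 0.81) and with it (log2 0.84).

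The genes that KLF1 is known to switch on did not move one way with it. Of 13 listed, 10 could be tested, and EST in Vector cells raised 4 and lowered 6 of them, as did SREBP2 alone, where 70.6% and 71.5% of all genes passed in either direction. Icam4, a red cell adhesion protein, rose from 17.0 ± 2.37 to 72.5 ± 2.87 CPM with EST (log2 2.09, adjusted p = 8.81e-13) and to 63.7 ± 0.996 CPM with SREBP2 (log2 1.90). Cdkn1b, the cell cycle inhibitor p27, rose from 27.3 ± 3.00 to 118 ± 3.58 and 118 ± 12.4 CPM (log2 2.11 in both, adjusted p = 5.32e-12 and 4.31e-12). Epb42, which encodes a protein of the red cell membrane skeleton, fell from 31.2 ± 1.11 to 4.27 ± 0.564 and 4.58 ± 0.666 CPM (log2 -2.87 and -2.77). SREBP2 under EST changed 0 of the 10 in edgeR, where 21.9% of all genes passed, with 2 at an unadjusted p under 0.05 and 0 in DESeq2. The 2 CtBP corepressors, through which KLF3 acts, were lower in both comparisons with Vector, Ctbp1 by a log2 of -0.30 with EST and -0.36 with SREBP2, and Ctbp2 by -0.62 and -0.69.

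Gfi1b, the erythroid repressor (Entrez 14582, chr2:28609450-28621982), showed the largest rise of the set, to overlapping levels in the 3 groups with EST, SREBP2 or both. It read 301, 286 and 289 CPM in Vector, 754, 716 and 785 CPM in Vector+EST, 702, 742 and 798 in SREBP2, and 739.6, 708 and 778 CPM in SREBP2+EST. No library of those 3 groups came near the Vector level, and among themselves they overlapped. Gfi1b rose 2.58-fold with EST in Vector cells (log2 1.36 ± 0.050, adjusted p = 9.6e-13) and 2.56-fold with SREBP2 alone (log2 1.36 ± 0.050, adjusted p = 7.92e-13). EST added to SREBP2 changed the level by -0.010 on the log2 scale, with a 95% interval from -0.12 to 0.10. SREBP2 against Vector+EST gave -0.0084, with an interval from -0.12 to 0.10.

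Gfi1, the relative used in myeloid and lymphoid cells (Entrez 14581, chr5:107716657-107726036), was at the edge of detection. It had 1, 3 and 8 estimated counts in Vector, 7, 3 and 5 in Vector+EST, 6, 2 and 7 in SREBP2, and 4, 8 and 2 in SREBP2+EST, which averages 0.205 to 0.269 CPM where 3 counts come to a median of 0.159 CPM. A change was not detectable at this depth, and in a fit without the low-count filter its adjusted p was 0.755 for EST in Vector cells, 0.721 for SREBP2 alone and 1 for SREBP2 under EST.

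The 8 listed corepressors of the GFI proteins were all tested, and their core subunits went different ways. Of the 8, EST in Vector cells raised 2 and lowered 6, and SREBP2 alone raised 2 and lowered 5, beside 35.5% and 33.8% of all genes lowered. Kdm1a, which encodes the demethylase LSD1, rose from 88.1 ± 3.90 to 148 ± 2.07 CPM with EST (log2 0.75 ± 0.04, adjusted p = 3.06e-10) and to 143 ± 6.90 CPM with SREBP2 (log2 0.70). Among the CoREST scaffold genes, Rcor1 rose from 215 ± 4.45 to 299.7 ± 7.18 CPM with EST and to 309.6 ± 5.86 CPM with SREBP2, while Rcor2 fell from 24.8 ± 0.902 to 5.18 ± 0.500 CPM and 4.37 ± 1.34 CPM, and Rcor3 fell from 33.4 ± 0.499 to 20.1 ± 1.73 CPM and 24.8 ± 1.17 CPM. Under EST, SREBP2 raised Hmg20b, a further subunit of the LSD1 complex, from 45.5 ± 2.69 to 61.2 ± 0.483 CPM (log2 0.43, adjusted p = 5.25e-06).

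Genes that GFI1B or GFI1 is known to repress were mostly lower in Vector+EST and in SREBP2 than in Vector. Whether Gfi1b had a part in this was not tested. Of 11 listed, 7 were tested, of which EST in Vector cells lowered 6 and raised 1, against 35.5% of all genes lower and 35.2% higher, and SREBP2 alone lowered 5 and raised 2. Rgs18, a regulator of G-protein signalling in platelets, fell from 53.4 ± 2.50 to 8.84 ± 0.953 CPM with EST (log2 -2.59, adjusted p = 5.36e-13) and to 7.02 ± 1.18 CPM with SREBP2 (log2 -2.92). Socs3 and Socs1, feedback inhibitors of cytokine signalling, fell by 2.65 and 1.26 on the log2 scale with EST in Vector cells. The tested gene that EST in Vector cells raised was Meis1, a stem cell homeobox gene, which rose from 4.02 ± 0.315 to 8.88 ± 1.04 CPM with EST and to 10.5 ± 0.172 CPM with SREBP2. Spi1, which encodes the myeloid factor PU.1, fell from 56.8 ± 3.51 to 38.3 ± 2.01 CPM with EST in Vector cells (log2 -0.57), rose to 73.9 ± 6.37 CPM with SREBP2 alone (log2 0.38), and under EST was higher with SREBP2 by 0.96 on the log2 scale (adjusted p = 1.54e-08). Meis1 and Spi1 were picked after their values were seen, Meis1 as the gene that EST raised and Spi1 by the naming rule under EST.

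Myb, the progenitor factor (Entrez 17863, chr10:21124935-21160984), was highest in Vector. It read 339, 328 and 342 CPM there, 244, 241 and 236 CPM in Vector+EST, 225, 289.8 and 275 in SREBP2, and 281, 217 and 215 CPM in SREBP2+EST. All 9 other libraries lay below Vector, and each of the SREBP2 groups had library 1 on its own side. Myb fell by 0.49 ± 0.091 on the log2 scale with EST in Vector cells (adjusted p = 0.000171) and by 0.35 ± 0.091 with SREBP2 alone (adjusted p = 0.00244). The other 3 groups did not differ past the threshold from each other over all 12 libraries.

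Of 5 known MYB target genes, EST in Vector cells raised 2 and lowered 3, and SREBP2 alone did likewise, where 70.6% and 71.5% of all genes passed. Myc, the proliferation factor, fell from 401 ± 12.7 to 126 ± 3.76 CPM with EST (log2 -1.67, adjusted p = 3.08e-08) and to 146 ± 33.2 CPM with SREBP2 (log2 -1.46). Cdk6, a cell cycle kinase, fell from 218 ± 16.0 to 114.5 ± 3.31 and 110.4 ± 18.0 CPM. Bcl2, an inhibitor of cell death, rose by 0.79 on the log2 scale in both comparisons. SREBP2 under EST changed 0 of the 5 in edgeR, where 21.9% of all genes passed, with 1 at an unadjusted p under 0.05 and 0 in DESeq2. Among 5 coactivators of KLF1 and MYB, the acetyltransferase genes Kat2b (log2 1.28 with EST, 1.15 with SREBP2) and Crebbp (0.81 and 0.72) rose, and Smarcc1, a subunit of the SWI/SNF remodeller, fell (-0.57 and -0.68).

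Bcl11a, the main silencer of fetal globin (Entrez 14025, chr11:24078056-24174123), was lower in every other library than in Vector. It read 271, 263 and 267 CPM in Vector, 153, 158 and 162 CPM in Vector+EST, 109, 142 and 139 in SREBP2, and 139, 114 and 119 CPM in SREBP2+EST. All 6 SREBP2 libraries, with or without EST, also lay below the 3 Vector+EST libraries. Bcl11a fell by 0.76 ± 0.081 on the log2 scale with EST in Vector cells (adjusted p = 3.73e-07) and by 1.04 ± 0.082 with SREBP2 alone (adjusted p = 9.68e-09). Under EST it was 1.27-fold lower with SREBP2 (log2 -0.34 ± 0.083, adjusted p = 0.00733), and SREBP2 without EST was below Vector+EST by 0.28 ± 0.083 (adjusted p = 0.0245). That last call was lost in 3 of the 12 fits that left out 1 library, with adjusted p up to 0.0715, those without Vector+EST library 3, Vector+EST library 5 or SREBP2 library 1.

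Zbtb7a, the silencer LRF (Entrez 16969, chr10:81135220-81152995), moved little. It stood at 121, 115 and 117 CPM in Vector, 107, 103 and 116 CPM in Vector+EST, 95.9, 107 and 106 in SREBP2, and 100.5, 94.5 and 100.2 CPM in SREBP2+EST. The Vector and Vector+EST libraries overlapped, and no library of either SREBP2 group reached Vector. It fell by 0.19 ± 0.052 on the log2 scale with SREBP2 alone (adjusted p = 0.00301). EST in Vector cells gave -0.11 ± 0.051, which missed the threshold (adjusted p = 0.0581). It passed without Vector+EST library 5 (-0.18, adjusted p = 0.00633), the library of that group with the high fibroblast sum. It also passed without Vector library 4 or 5, SREBP2 library 1, or SREBP2+EST library 2 or 5 (adjusted p from 0.0182 to 0.0331). DESeq2 (0.0405) called it as well. So did edgeR with other scalings (0.0372 and 0.0245), a stricter low-count filter (0.0137) or only the 6 libraries compared (0.0201). SREBP2 under EST gave -0.14 ± 0.052 (adjusted p = 0.0591). DESeq2 called this one (-0.16, adjusted p = 0.0357), as did edgeR without Vector+EST library 3 (0.0418) or SREBP2 library 1 (0.0214). Other scalings also brought this call (0.0404 and 0.00874).

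Sox6 (Entrez 20679, chr7:115470872-116038796) was low throughout and split the libraries into Vector and the rest. It read 32.3, 32.1 and 33.0 CPM in Vector, 14.0, 13.3 and 11.3 CPM in Vector+EST, 13.3, 13.3 and 12.8 in SREBP2, and 16.5, 12.2 and 12.5 CPM in SREBP2+EST. It fell 2.52-fold with EST in Vector cells (log2 -1.33 ± 0.096, adjusted p = 3.48e-09) and 2.47-fold with SREBP2 alone (log2 -1.30 ± 0.096, adjusted p = 4.14e-09). The 3 lower groups overlapped, and SREBP2 under EST changed it by 0.094 with a 95% interval from -0.15 to 0.34.

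Most genes of the NuRD complex, through which BCL11A, ZBTB7A and the Ikaros proteins act, were lower outside Vector. Of its 11 genes, EST in Vector cells lowered 9 and raised 2, and SREBP2 alone did the same in number, beside the 35.5% and 33.8% of all genes that fell. Chd4, the main ATPase of the complex, fell from 656 ± 11.1 to 227 ± 10.5 CPM with EST (log2 -1.53, adjusted p = 5.66e-13) and to 231 ± 12.8 CPM with SREBP2 (log2 -1.50). Chd3, its relative, fell from 178 ± 3.68 to 84.1 ± 1.79 and 72.03 ± 3.06 CPM, and under EST was lower with SREBP2 by 0.23 on the log2 scale (adjusted p = 0.000665). The embryonic globin genes that these silencers act on were low, and Hbb-bh1 alone of them was tested. Hbb-bh1 averaged 2.05 to 2.95 CPM and did not pass the threshold for EST in Vector cells (adjusted p = 0.511), SREBP2 alone (0.286) or SREBP2 under EST (0.831), Hbb-y averaged at most 0.108 CPM, and Hba-x did not pass the low-count filter.

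Ikzf1, the founder of the Ikaros family (Entrez 22778, chr11:11685003-11772926), differed most between the Vector+EST and SREBP2 groups. It stood at 259, 259 and 269 CPM in Vector, 281, 283 and 274 CPM in Vector+EST, 249, 254 and 242 in SREBP2, and 256, 243 and 237 CPM in SREBP2+EST. All 3 Vector+EST libraries lay above all 9 others. Under EST it was lower with SREBP2 by 0.19 ± 0.037 on the log2 scale (adjusted p = 0.00174), and SREBP2 without EST was below Vector+EST by 0.17 ± 0.037 (adjusted p = 0.00334). The steps from Vector were small, with a rise under EST in Vector cells of 0.091 ± 0.037 on the log2 scale (adjusted p = 0.0385). DESeq2 did not make this call (adjusted p = 0.105). Nor did edgeR with other scalings (0.101 and 0.0801) or other low-count filters (0.0739 and 0.184). It was lost in 8 of the 12 fits without 1 library, those without any Vector or Vector+EST library or SREBP2+EST library 2 or 5. The adjusted p was up to 0.4, without Vector library 4. SREBP2 alone gave -0.079 ± 0.037 (adjusted p = 0.069), which DESeq2 called (adjusted p = 0.0179). So did edgeR without Vector library 4 (0.0189), Vector+EST library 5 (0.0365) or SREBP2+EST library 1, 2 or 5 (0.0306 to 0.0479). Other scalings (0.0231 and 0.00413) and a stricter low-count filter (0.0151) also brought this call.

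Ikzf4, which encodes Eos (Entrez 22781, chr10:128630843-128645991), had the largest fold change of the 10 genes. It read 28.2, 28.2 and 28.5 CPM in Vector and 1.80, 1.73 and 2.55 CPM in Vector+EST, 2.07, 2.06 and 1.84 in SREBP2, and 2.44, 1.62 and 1.78 CPM in SREBP2+EST. Vector and the rest were far apart, and the 3 low groups overlapped. EST lowered Ikzf4 13.95-fold in Vector cells (log2 -3.80 ± 0.12, adjusted p = 2.03e-13), and SREBP2 alone lowered it 14.2-fold (log2 -3.83 ± 0.12, adjusted p = 1.42e-13). The low groups rest on 29.8 to 48.1 estimated counts per library, so differences among them are known less well, and SREBP2 under EST gave -0.058 with a 95% interval from -0.48 to 0.37. Of the other Ikaros genes beside Ikzf1, Ikzf2 rose from 10.2 ± 0.659 to 16.0 ± 2.2 CPM with EST and 17.8 ± 2.03 CPM with SREBP2, Ikzf5 from 46.7 ± 0.767 to 73.0 ± 2.19 and 67.3 ± 5.94 CPM, and Ikzf3 did not pass the low-count filter.

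**Figure D2:**
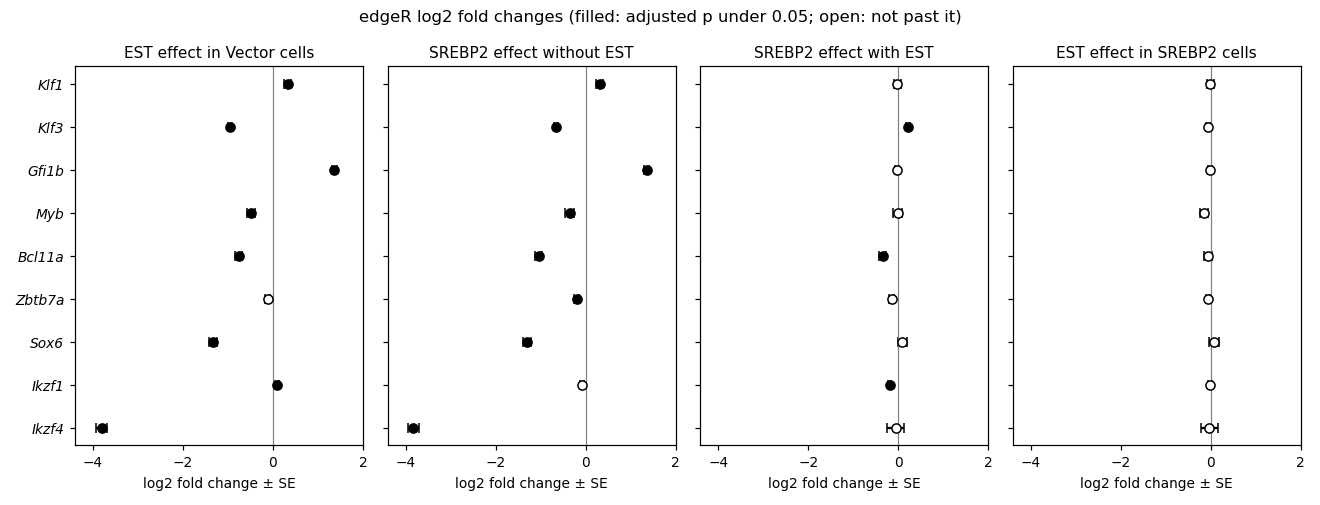
edgeR log2 fold change ± SE (horizontal axis) of the 9 tested genes in 4 comparisons, filled where the adjusted p was under 0.05. EST in Vector cells and SREBP2 alone, which share the Vector libraries, give values from -3.80 or -3.83 (Ikzf4) to 1.36 (Gfi1b), SREBP2 under EST gives values between -0.34 and 0.22, and EST in SREBP2 cells gives no filled point.

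Whether EST acted differently with SREBP2 present was tested by the interaction, the EST effect in SREBP2 cells minus that in Vector cells. It passed for 7 of the 9 members, 5 above 0 and 2 below, where 59.0% of all genes passed (29.8% above, 29.2% below). Ikzf4 (3.77 ± 0.24), Sox6 (1.4 ± 0.14), Klf3 (0.89 ± 0.065), Bcl11a (0.70 ± 0.12) and Myb (0.34 ± 0.13) had positive values, and Gfi1b (-1.37 ± 0.070) and Klf1 (-0.34 ± 0.11) had negative ones. Zbtb7a (0.051, adjusted p = 0.577) and Ikzf1 (-0.11, adjusted p = 0.0932) did not pass. Without both libraries 1 of the SREBP2 groups the value for Myb was 0.14 (adjusted p = 0.0183) and that for Bcl11a 0.53 (adjusted p = 2.35e-08), and Ikzf1 passed without SREBP2+EST library 1 (adjusted p = 0.0306). The call for Myb was not made by DESeq2 (adjusted p = 0.0803), nor by edgeR in 5 of the 12 fits without 1 library (adjusted p from 0.0504 to 0.0909, with a value of 0.20 without SREBP2+EST library 1), those without Vector library 1, Vector+EST library 1 or 3, SREBP2 library 1 or SREBP2+EST library 1. That for Klf1 was lost without Vector library 4 (adjusted p = 0.0556). The 2 treatments given singly were also set against each other. SREBP2 without EST differed from Vector+EST in 3 of 9 members, Klf3, Bcl11a and Ikzf1, where 23.4% of all genes passed.

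The EST comparison in SREBP2 cells turned on the libraries numbered 1. For 4 of the 9 members, SREBP2 library 1 lay outside its group on one side and SREBP2+EST library 1 on the opposite side, where 43% of all tested genes did so. Myb was 225 CPM in SREBP2 library 1 against 275 and 289.8 CPM in the others, and 281 CPM in SREBP2+EST library 1 against 215 and 217 CPM. Bcl11a was 109 against 139 and 142 CPM, and 139 against 114 and 119 CPM. Klf1 was 288 against 343 and 368 CPM, and 349 against 303 and 338 CPM, and Zbtb7a was 95.9 against 106 and 107 CPM, and 100.5 against 94.5 and 100.2 CPM. Over all 12 libraries, EST in SREBP2 cells gave -0.15 for Myb (adjusted p = 0.919) and -0.067 for Bcl11a (0.934) on the log2 scale. These 2 libraries were left out for standing apart from their own groups, which by itself narrows the spread and leaves 2 libraries in each. Without them, EST in SREBP2 cells gave -0.38 for Myb (adjusted p = 2.17e-06) and -0.27 for Bcl11a (0.000214), where 13.9% of 11292 genes passed. SREBP2 under EST then also lowered Myb by 0.15 (adjusted p = 0.00234) and Zbtb7a by 0.16 (adjusted p = 0.0121), which made 5 members where 30.7% of genes passed, and Myb was higher in SREBP2 than in Vector+EST by 0.23 (adjusted p = 2.3e-05). In the other comparisons, leaving them out put SREBP2 below Vector+EST by 0.17 for Bcl11a (adjusted p = 0.00136), ended the call for Ikzf1 for EST in Vector cells (0.054, adjusted p = 0.119), and brought calls for Zbtb7a for EST in Vector cells (-0.15, adjusted p = 0.00223) and for Ikzf1 for SREBP2 alone (-0.12, adjusted p = 0.00333). For SREBP2+EST against Vector, Ikzf1 went from -0.095 (adjusted p = 0.031) to -0.17 (adjusted p = 0.000218). With all other libraries kept, this Ikzf1 call was lost without SREBP2+EST library 5 (-0.089, adjusted p = 0.0647). It was also lost over all 12 libraries without the low-count filter (0.0594). For SREBP2 alone, leaving both libraries 1 out gave -0.29 for Myb and 0.37 for Klf1. By the root mean square difference of log2 levels over the tested genes, SREBP2 library 1 lay 0.31 and 0.32 from the other SREBP2 libraries and 0.33 from each of SREBP2+EST libraries 2 and 5, and SREBP2+EST library 1 lay 0.32 from each of its own group and 0.33 and 0.32 from SREBP2 libraries 3 and 5. The fibroblast sum of SREBP2 library 1 (4.03 CPM) lay by the other SREBP2 libraries (4.66 and 5.42 CPM), and that of SREBP2+EST library 1 (20.7 CPM) between the other SREBP2+EST libraries (18.1 and 33.8 CPM), as headed. The headers were kept as given. Whether these 2 columns hold the groups their headers name was not tested beyond these values, and an exchange would move their values, such as 225 and 281 CPM for Myb, between the groups, so every value that uses SREBP2 or SREBP2+EST rests on those headers.

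**Figure D3:**
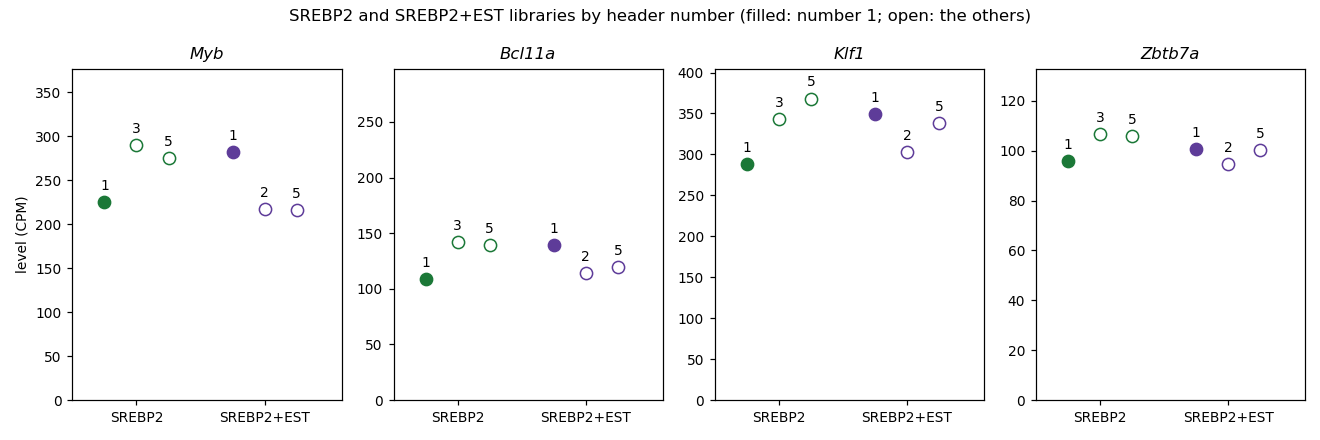
Levels in CPM (vertical axis from 0) of Myb, Bcl11a, Klf1 and Zbtb7a in the SREBP2 and SREBP2+EST libraries, each marked with its number and filled for number 1. Library 1 is the lowest of SREBP2 and the highest of SREBP2+EST in each of the 4 genes.

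Per kilobase of the longest coding transcript, the levels in Vector ran from Klf1 (175 CPM per kb) and Gfi1b (160.2) through Myb (91.1), Ikzf1 (50.8), Bcl11a (44.6), Zbtb7a (19.8), Klf3 (19.3), Ikzf4 (5.50) and Sox6 (3.74) to Gfi1 (0.0715). In the other 3 groups Gfi1b was the highest of the set, at 407 to 413 CPM per kb, and Klf1 followed at 216 to 219 CPM per kb. Ikzf4 then ranked below Sox6. With the length of all exons of a gene in place of its longest transcript, Ikzf1 ranked above Myb in every group and Zbtb7a above Bcl11a in all groups but Vector.

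For each tested member, the genes with the most similar course over the 4 group means were found among 8494 others (8495 for Ikzf4) whose log2 CPM averaged 3 or more, by the root mean square difference of log2 levels centred on each gene. Stimate followed Gfi1b most closely (difference 0.0077), from 11.6 ± 0.562 CPM in Vector to 30.2 ± 1.26 CPM in Vector+EST, then Mycbp2 (0.012). Ascc3 (0.0043) and Ergic2 (0.0049) followed Klf1, Nbeal2 (0.016) and Zfp36l1 (0.022) followed Klf3, and Piwil4 (0.012) and Ormdl1 (0.016) followed Myb. Cfap298 and Ssbp4 came nearest to Bcl11a, Cox20 and Mettl5 to Zbtb7a, Acap1 and Nt5c2 to Sox6, and Pogz and Trdmt1 to Ikzf1. The course of Ikzf4 had no such close partner, the nearest being Stk10 (0.15), which went from 69.9 ± 1.56 CPM in Vector to between 6.19 and 6.40 CPM, and Treml2 (0.22). With 4 points per gene, such likeness is a description.

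**Figure D4:**
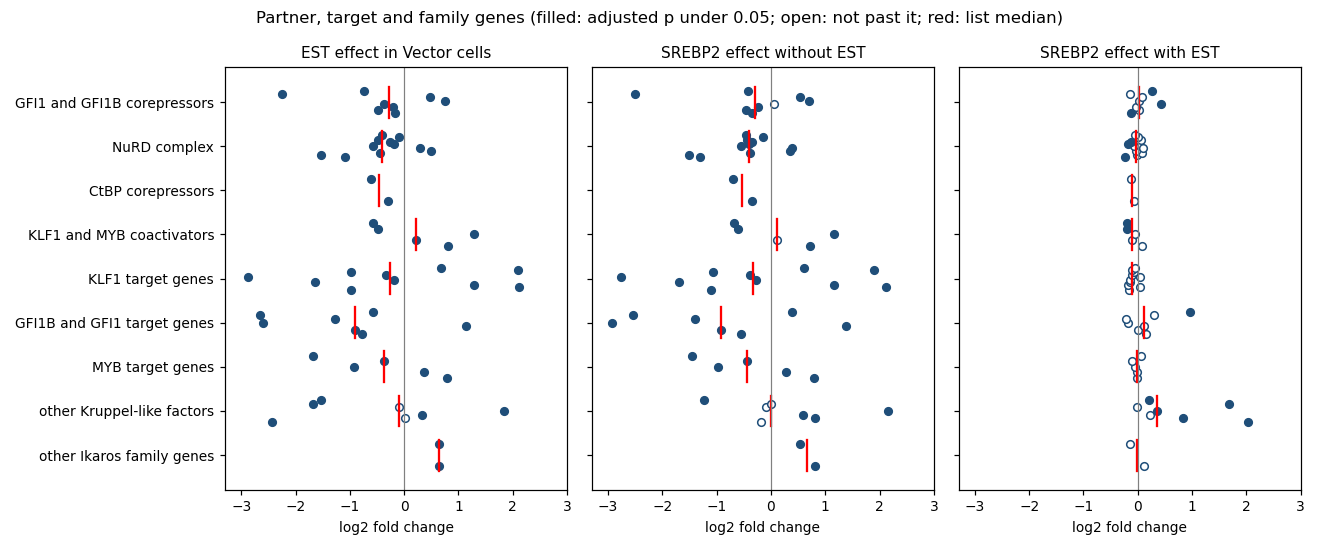
edgeR log2 fold change (horizontal axis) of the tested genes of 9 partner, target and family lists in 3 comparisons, filled where the adjusted p was under 0.05, with a red line for each list's median. The NuRD genes lie mostly left of 0 for EST in Vector cells and for SREBP2 alone, and 5 of the 7 other Krüppel-like factors are filled right of 0 for SREBP2 under EST.

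Markers of several other cell types were read beside these results. The erythroid markers themselves split, as EST in Vector cells raised 2 of 8 and lowered 5, with Slc4a1 (log2 -4.56) and Tal1 (-2.26) down and Alas2 (1.4) up. The summed megakaryocyte list, 4 of 5 markers in the table, was 38.3 to 42.8 CPM in Vector, 11.5 to 12.8 CPM in Vector+EST, 46.1 to 61.1 in SREBP2 and 46.6 to 57.9 CPM in SREBP2+EST, with Vwf at 0 in 10 of the 12 libraries. Within it Pf4, which makes up most of the SREBP2 sums (47.7 CPM in SREBP2), fell with EST in Vector cells (log2 -0.63) and rose with SREBP2 alone (2.33) and under EST (2.86), while Itga2b (-2.45 with EST in Vector cells, -1.96 with SREBP2 alone) and Gp9 (-2.06 and -1.88) fell in both comparisons with Vector. Mast cell markers (all 4 in the table) summed to 11.7 to 12.1 CPM in Vector and 1.86 to 4.12 CPM elsewhere, nearly all of it Cpa3, with Cma1 at 0 in 11 libraries. Myeloid markers (5 of 5) summed to 0.872 to 1.18 CPM in Vector, 0.722 to 1.31 CPM with EST, 1.48 to 2.17 CPM with SREBP2 and 1.35 to 1.57 CPM with both, with Ctsg at 0 in 11 libraries, and Csf3r rose with SREBP2 alone (log2 1.07, adjusted p = 0.00221). T cell markers (3 of 4) summed to 6.41 to 8.05 CPM in Vector and 4.23 to 5.74 CPM elsewhere, with Cd3e at 0 in 11 libraries, and Lck fell with EST in Vector cells (log2 -1.15, adjusted p = 4.38e-05) and with SREBP2 alone (log2 -1.20, adjusted p = 3.12e-05). Cd79a, which encodes a B cell receptor subunit, averaged 0.102 CPM in Vector, below the detection floor, and 0.953 to 1.04 CPM in the other groups (log2 3.17 with EST in Vector cells and 3.27 with SREBP2 alone, adjusted p = 2.36e-05 and 1.49e-05). The part of these cell types in the members' values was not tested. Without Vector+EST library 5, the EST effects in Vector cells on Klf1 (0.25), Klf3 (-0.96), Gfi1b (1.31), Myb (-0.49), Bcl11a (-0.80), Sox6 (-1.26) and Ikzf4 (-4.02) still passed the threshold, and that on Ikzf1 did not (adjusted p = 0.0796).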

How the data were processed

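Oligo(dT)-selected mRNA of 12 libraries was sequenced as single-end reads. The authors deposited estimated counts per gene, not normalized, of which 66.5% are whole numbers. The submitters' processing notes name HISAT2 2.0.4, Bowtie2 2.2.5, RSEM 1.2.12, DESeq2 1.4.5 and GRCm38.p6 without their roles. A second deposited table holds the authors' own pairwise fold changes and p-values per transcript and was not used. Groups came from the sample titles, and columns were assigned to groups by their headers, whose numbers are not the replicate numbers of the titles.

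The estimated counts were rounded and fitted in edgeR 4.0.16 (R 4.3.3) with 1 mean per group over all 12 libraries, after filterByExpr (11177 genes kept, 6033 left out) and TMM scaling. The quasi-likelihood F-test gave two-sided p-values, adjusted by Benjamini-Hochberg over all genes tested. The SE of a log2 fold change was its size over √F, and 95% intervals use a t distribution with 8 degrees of freedom. Totals of 18700959 to 19152281 counts put 3 counts, the detection floor, at a median of 0.159 CPM, which covers counting error only. The procedure was tested on simulated data. Named genes are all members, up to 3 genes of each list with the largest change among those past the threshold, every gene of a list of 5 or fewer, and the 2 most similar genes of each member; not all are reported, and 1 marker list is not reported here. Positions and lengths are from GENCODE M21 (GRCm38), promoters from RefSeq. The members and lists were chosen with earlier results of these data known. Alternatives were DESeq2 1.42.0, other scalings and filters, only the 6 libraries compared, a block on header numbers, both libraries 1 of the SREBP2 groups left out, and each library left out.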

Additional observations from a re-analysis of the deposited data

Results flagged for a closer look

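In the edgeR interaction, 59.0% of all tested genes passed the threshold. The difference between the EST effect in SREBP2 cells and that in Vector cells (log2, 3 libraries a group) passed the threshold for 7 members. It was -0.34 for Klf1 (adjusted p = 0.0127), 0.89 for Klf3 (9.16e-09), -1.37 for Gfi1b (1.38e-10), 0.34 for Myb (0.0328), 0.70 for Bcl11a (8.88e-05), 1.4 for Sox6 (4.94e-07) and 3.77 for Ikzf4 (1.59e-09). DESeq2 did not make the call for Myb (adjusted p = 0.0803), nor did edgeR (adjusted p from 0.0504 to 0.0909) without Vector library 1, Vector+EST library 1 or 3, SREBP2 library 1 or SREBP2+EST library 1. The value for Myb was 0.20 without SREBP2+EST library 1 and 0.14 without both libraries 1 of the SREBP2 groups. The call for Klf1 was lost without Vector library 4 (adjusted p = 0.0556). No group was large enough for a test of single libraries.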

How the results depend on the processing

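Over 20 alternatives, the calls for Klf1, Klf3, Gfi1b, Myb, Bcl11a, Sox6 and Ikzf4 for EST in Vector cells and for SREBP2 alone kept their direction and their side of the threshold, while small changes of Zbtb7a and Ikzf1 crossed it. Members past the threshold for SREBP2 under EST numbered 3 (21.9% of all genes passed), and 5 without both libraries 1 (30.7%). EST in SREBP2 cells went from 0 to 2 members without those libraries, and from 0% to 13.9% of all genes. Leaving out 1 library gave 7 to 9 members for EST in Vector cells, where 65.9% to 71.4% of all genes passed. SREBP2 alone gave 8 to 9 (66.9% to 71.3%), and SREBP2 under EST 3 to 4 (15.6% to 27.2%). EST in SREBP2 cells gave 0 to 0 (0% to 0.159%), and SREBP2+EST against Vector 8 to 9 (68.2% to 73.7%). SREBP2 against Vector+EST gave 2 to 3 (16.6% to 28.5%), and the interaction 6 to 7 (55.1% to 58.2%). Deviations of same-numbered libraries from their group means correlated between -0.17 and 0.067. With 3 libraries a group, these values cannot decide whether libraries were paired by the header numbers. A replicate block on them left 1 member for SREBP2 under EST, with all genes going from 2448 to 1208 calls, and took the calls from Bcl11a (adjusted p = 0.165) and Ikzf1 (0.0671) there, from Ikzf1 for EST in Vector cells (0.256) and for SREBP2+EST against Vector (0.138), from Bcl11a for SREBP2 against Vector+EST (0.0525), and from Klf1 in the interaction (0.117).

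Sign changes were of values that edgeR over all 12 libraries did not call. With the block, SREBP2 under EST gave 0.030 for Klf1, 0.084 for Myb and 0.018 for Ikzf4, and EST in SREBP2 cells 0.040 for Klf1, 0.0033 for Gfi1b, 0.031 for Bcl11a, 0.0022 for Ikzf1 and 0.040 for Ikzf4. Without both libraries 1, Sox6 gave -0.060 for SREBP2 under EST and -0.075 for EST in SREBP2 cells, and SREBP2 against Vector+EST gave 0.082 for Klf1 and 0.031 for Gfi1b. Library totals gave -0.015 for Sox6 in that comparison. Leaving out 1 library, SREBP2 under EST ran from -0.064 to 0.036 for Klf1, -0.054 to 0.013 for Gfi1b, -0.15 to 0.054 for Myb, -0.058 to 0.17 for Sox6 and -0.25 to 0.14 for Ikzf4. EST in SREBP2 cells ran from -0.11 to 0.067 for Klf1, -0.053 to 0.040 for Gfi1b, -0.18 to 0.0025 for Bcl11a, -0.085 to 0.14 for Sox6, -0.047 to 0.0052 for Ikzf1 and -0.23 to 0.078 for Ikzf4. SREBP2 against Vector+EST ran from -0.088 to 0.085 for Klf1, -0.058 to 0.034 for Gfi1b, -0.055 to 0.093 for Sox6 and -0.13 to 0.18 for Ikzf4. Under library totals, 1292 genes were higher and 1768 lower for SREBP2 under EST, against 1560 and 888 with TMM. The cause was not tested.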
